A study of Mus musculus with 6 samples.

Results

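The brakes of the cell cycle and the p53 axis were examined in renal cortex as 10 genes of the 19176 in the expression table, namely 7 genes that encode inhibitors of cyclin-dependent kinases (Cdkn1a, Cdkn1b, Cdkn1c, Cdkn2a, Cdkn2b, Cdkn2c and Cdkn2d) together with Trp53, Mdm2 and Rb1. The genes were chosen by name as cell cycle arrest and senescence genes, with earlier results of the same contrast known, so their differences between the groups are given as a description and no p-value or call is reported for them. All 10 symbols were found, each on a single row. RNA sequencing covered 6 libraries of left renal cortex, with 3 per group (UIRI group and UIRI + BA group). All were from wild-type male C57BL/6J mice, young adults, whose left renal pedicle had been clamped and whose right kidney was removed the day before tissue was taken on day 14. The UIRI group received daily intraperitoneal vehicle (ethanol in saline), and the UIRI + BA group received bruceine A (BA, which the labels spell brucine A) at 1 mg/kg each day from the day of surgery. According to the study, the replicates in a group were independent. Every kidney compared was injured, since sham libraries were not analysed here.

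Entry into the cell cycle is driven by cyclin-dependent kinases (CDKs), which phosphorylate the retinoblastoma protein Rb1 and so release E2F transcription factors. The INK4 inhibitors (Cdkn2a, Cdkn2b, Cdkn2c, Cdkn2d) bind CDK4 and CDK6, whereas the Cip/Kip inhibitors (Cdkn1a, Cdkn1b, Cdkn1c) bind cyclin-CDK complexes more broadly. The transcription factor p53 (Trp53) induces Cdkn1a and also Mdm2, the ubiquitin ligase that in turn degrades p53. In injured kidney, tubular cells that stay arrested are studied as a source of fibrosis and of secreted inflammatory factors, and Cdkn2a and Cdkn1a are the usual RNA markers of such cells.

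Positions were taken from GENCODE release M21 (GRCm38) through the gene symbol, because the build behind the deposited table is not given in the sources used here. Cdkn2a (chr4:89274471-89294653, minus strand) and Cdkn2b (chr4:89306299-89311039, minus strand) are neighbors, 11645 bases apart. Cdkn2a has 2 protein-coding transcripts with first exons of 207 and 320 bases that share no base, and these give the proteins p16INK4a and p19ARF in different reading frames. The table holds 1 value for the gene, so the transcripts could not be told apart. Cdkn2c lies at chr4:109660876-109667189 (minus), Cdkn2d at chr9:21288410-21291407 (minus), Cdkn1a at chr17:29090976-29100727 (plus), Cdkn1b at chr6:134920401-134925513 (plus) and Cdkn1c at chr7:143458339-143461050 (minus). Trp53 lies at chr11:69580359-69591873 (plus), Mdm2 at chr10:117688875-117710758 (minus) and Rb1 at chr14:73183673-73325822 (minus). Genes on the opposite strand overlap Cdkn1a, Cdkn1c and Rb1 (Rcbtb2 and Lpar6 at Rb1). On the same strand, Gm17233 and Mir687 overlap the span of Rb1. The library kit was strand-specific, but the strand setting of the read counting is not given in the sources used here.

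The start regions of Cdkn2a and Cdkn2b are shown because these neighbors had the largest differences between the groups, and the upstream start of Cdkn1a because this gene is the classical output of p53. Each is 300 bases of RefSeq sequence on GRCm38.p6 (250 before and 50 after the annotated start), written along the strand of the gene. Capitals mark the words searched for on both strands: an E2F word (TTTCCCGC or TTTGGCGC), a GC box (GGGCGG) and the half-sites of a p53 consensus pair.
Cdkn2a, distal start (chr4:89294570-89294869, minus): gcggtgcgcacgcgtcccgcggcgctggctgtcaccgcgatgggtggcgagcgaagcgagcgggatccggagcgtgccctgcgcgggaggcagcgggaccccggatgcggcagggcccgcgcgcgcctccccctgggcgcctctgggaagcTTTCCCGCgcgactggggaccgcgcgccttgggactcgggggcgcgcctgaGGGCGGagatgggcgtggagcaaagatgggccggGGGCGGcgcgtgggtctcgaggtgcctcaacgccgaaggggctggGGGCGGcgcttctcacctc
Cdkn2a, proximal start (chr4:89282143-89282442, minus): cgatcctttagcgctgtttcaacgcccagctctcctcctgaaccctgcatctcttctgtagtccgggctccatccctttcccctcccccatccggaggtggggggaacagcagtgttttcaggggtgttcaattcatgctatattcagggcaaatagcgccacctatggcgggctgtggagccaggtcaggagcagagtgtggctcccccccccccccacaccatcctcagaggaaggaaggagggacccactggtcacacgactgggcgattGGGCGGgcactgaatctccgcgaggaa
Cdkn2b (chr4:89310983-89311282, minus): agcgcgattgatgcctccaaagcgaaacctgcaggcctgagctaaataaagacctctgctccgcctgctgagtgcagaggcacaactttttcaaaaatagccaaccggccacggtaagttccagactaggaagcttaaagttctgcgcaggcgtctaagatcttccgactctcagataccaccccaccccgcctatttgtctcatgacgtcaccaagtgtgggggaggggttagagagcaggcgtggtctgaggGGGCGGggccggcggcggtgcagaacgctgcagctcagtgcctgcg
Cdkn1a, upstream start (chr17:29090729-29091028, plus): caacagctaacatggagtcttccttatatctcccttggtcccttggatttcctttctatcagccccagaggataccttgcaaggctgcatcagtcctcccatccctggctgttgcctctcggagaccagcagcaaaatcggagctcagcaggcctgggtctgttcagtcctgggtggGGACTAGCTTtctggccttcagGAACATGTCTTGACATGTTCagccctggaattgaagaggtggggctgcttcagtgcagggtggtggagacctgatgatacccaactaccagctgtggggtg

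The distal Cdkn2a window was the richest in G and C, at 77.0%, against 60.3% at the proximal start, 57.7% at Cdkn2b and 54.7% at the upstream Cdkn1a start. It held the 1 E2F word found in the 11 windows of 8 of the 10 genes (none was available for Cdkn1c and Rb1), and such a word stands in 1.56% of all 32851 promoter windows of that length. GC boxes stood in 8 of the 11 windows and in 35.7% of all windows. A p53 pair was defined as consensus half-sites of 10 bases with at most 1 mismatch in all and a spacer of at most 13 bases. The upstream Cdkn1a window alone among the 11 held this pattern, which occurs in 0.627% of all windows. It held 2 overlapping pairs, 1 without a mismatch and with a spacer of 12 bases, and 1 with 1 mismatch and no spacer. A TATA word (TATAAA) was found in 1 of the 11 windows, that of Trp53, against 13.6% of all windows, and a CCAAT word in 6, against 37.4%. These matches describe the letters of the windows and no binding was measured.

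Library depth ran from 16510720 to 38124164 reads on genes, the highest value being that of UIRI replicate 3, at 2.04 times the median of the others. Levels are given as normalized counts, which are reads on a gene divided by the size factor of the library. In limma's test over the whole table, 0 of 19176 genes (0%) had a Benjamini-Hochberg adjusted p below 0.05, the smallest being 0.225, while 884 lower and 1087 higher genes had an unadjusted p below 0.05. edgeR called 0 of 17155 genes (1703 at an unadjusted p below 0.05), and DESeq2 called 213, or 1.35% of the 15826 genes to which it gave an adjusted p. Without UIRI replicate 3 the limma count was 962, and without both libraries numbered 3 it was 557. These are the libraries with the most Krt15, a basal urothelial keratin, in their groups, which measured 55.5, 48.4 and 217 normalized counts in UIRI against 1.25, 5.38 and 152 in UIRI + BA. UIRI replicate 3 also stood away from its group on the main axis of variation between libraries (principal component 1, 41.8% of the variance). Its score was 11.1, within the UIRI + BA scores of 30.5, 3.11 and 13.4, against -32.5 and -25.5 for UIRI replicates 1 and 2. The part of depth, Krt15 or this position in the counts was not tested. Cell type markers also differed between the groups, as described after the genes.

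**Figure D1:**
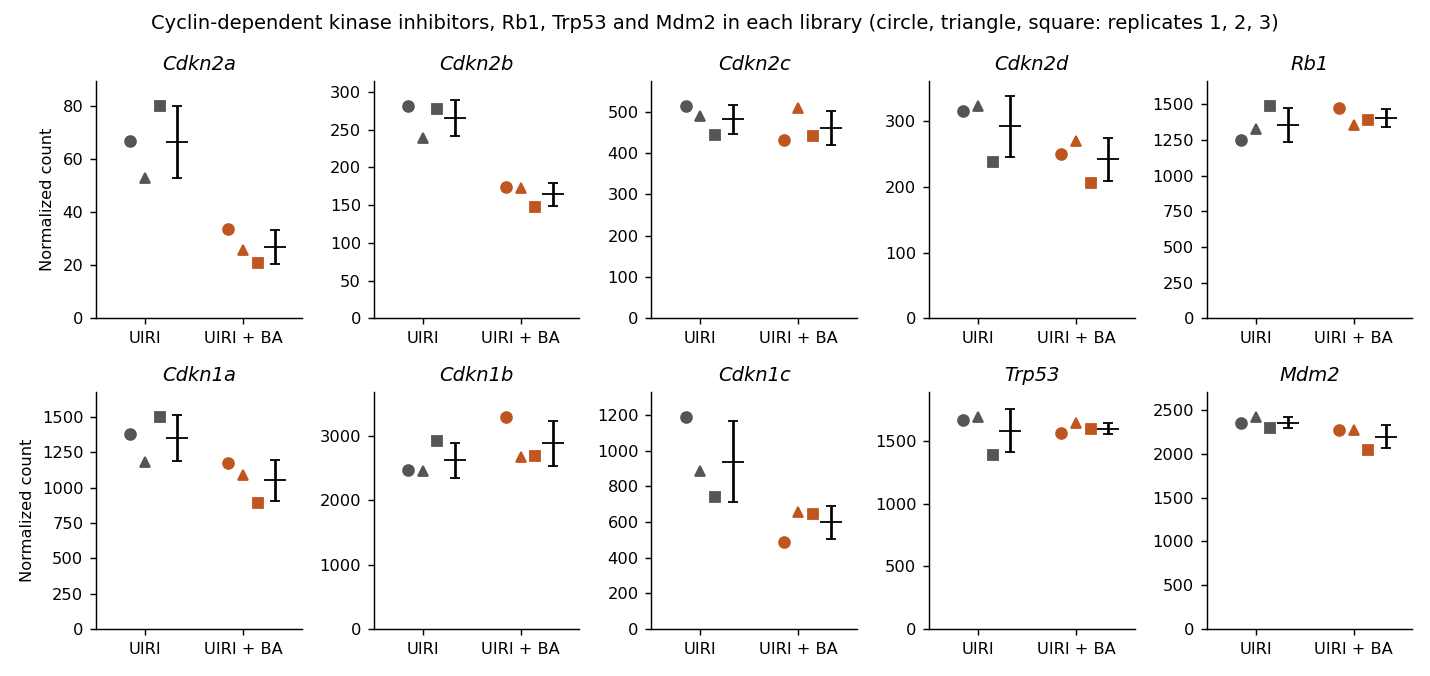
Normalized counts (vertical axes, from 0) of the 10 genes in the 3 UIRI (gray) and 3 UIRI + BA (orange) libraries, with group means and SD in black (n = 3). The groups stand apart for Cdkn2a, Cdkn2b, Cdkn1a and Cdkn1c, narrowly for Mdm2, and overlap for the other genes.

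The lowest and most divergent of the 10 genes was Cdkn2a. It measured 66.8, 52.9 and 80.0 normalized counts in UIRI replicates 1, 2 and 3 and 33.8, 25.8 and 20.9 in UIRI + BA replicates 1, 2 and 3. Every UIRI + BA library lay below every UIRI library. The means were 66.6 ± 13.5 and 26.8 ± 6.53 (SD, n = 3), so that UIRI + BA held 40.3% of the UIRI level. The log2 fold change was -1.28 (SE 0.25), where this and all further fold changes are UIRI + BA minus UIRI on the scale of log2(normalized count + 1). It ran from -1.46 to -1.12 when each library was left out in turn and was -0.98 without both libraries numbered 3. These values rest on 20 to 146 reads per library, the fewest of the 10 genes, and the deepest library held the 146.

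Cdkn2b, which encodes p15INK4b, an inhibitor that TGF-β is known to induce, showed the same order of the groups. Its normalized counts were 281, 238 and 277 in UIRI against 174, 172 and 147 in UIRI + BA. All UIRI + BA libraries were again below all UIRI libraries, and the spread within a group was small, with a coefficient of variation of 8.85% in UIRI against 9.17% in UIRI + BA. The mean was 266 ± 23.5 in UIRI against 165 ± 15.1 in UIRI + BA (SD, n = 3), 62.0% of the UIRI level. The log2 fold change was -0.69 (SE 0.13) and stayed between -0.76 and -0.61 with any 1 library left out. Cdkn2b was read 139 to 506 times per library.

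Set against its neighbor, Cdkn2a was lower by more. The ratio of Cdkn2a to Cdkn2b counts was 0.238, 0.222 and 0.289 in UIRI against 0.194, 0.150 and 0.142 in UIRI + BA, with no overlap of the groups. A ratio within a library does not depend on how the libraries were scaled, but it carries the counting error of both genes. The nearest values, 0.222 in UIRI and 0.194 in UIRI + BA, rest on 47 and 27 reads of Cdkn2a. Whether the gap between them exceeds counting error was not tested.

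The other INK4 genes differed less. Cdkn2c, encoding p18INK4c, measured 513, 489 and 445 in UIRI against 432, 509 and 441 in UIRI + BA. The groups overlapped, and the log2 fold change was -0.07 (SE 0.10). Cdkn2d, encoding p19INK4d, measured 316, 323 and 239 in UIRI against 251, 270 and 206 in UIRI + BA. UIRI replicate 3 lay below 2 of the UIRI + BA libraries, and the log2 fold change of -0.27 (SE 0.15) was -0.41 without it. The ratio of Cdkn2b to Cdkn2c was 0.547, 0.487 and 0.623 in UIRI against 0.403, 0.338 and 0.333 in UIRI + BA, without overlap. All 4 INK4 genes had a negative log2 fold change, as had 51.1% of all genes, and for Cdkn2c the standard error spanned 0. In 2 of the 4 the groups stood apart, beside 6.96% of all genes that were lower without overlap. Nothing is read from these counts, because the contrast was in view when the genes were chosen.

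Among the Cip/Kip inhibitors, Cdkn1c had the larger difference. It encodes p57KIP2, an imprinted inhibitor that is prominent in podocytes, the filtering cells of the glomerulus. Cdkn1c measured 1188, 889 and 739 normalized counts in UIRI against 490, 658 and 647 in UIRI + BA. The groups did not overlap, though the UIRI libraries were widely spread, with a coefficient of variation of 24.4%. The means were 939 ± 229 and 598 ± 94.1 (SD, n = 3), 63.7% of the UIRI level in UIRI + BA, and the log2 fold change was -0.63 (SE 0.18). With 1 library left out it ran from -0.79 to -0.45. The summed level of the 8 podocyte markers overlapped, at 13557 to 15184 normalized counts in UIRI against 12678 to 16062 in UIRI + BA. Their median log2 fold change was -0.08, with 6 of the 8 negative. Singly, 1 marker was lower and 1 higher without overlap. Over all genes, 6.96% were lower and 7.45% higher without overlap.

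Cdkn1a encodes p21, the best known transcriptional target of p53. Its normalized counts were 1376, 1181 and 1499 in UIRI against 1171, 1089 and 893 in UIRI + BA. The groups did not overlap, but the highest UIRI + BA library (1171) and the lowest UIRI library (1181) were nearly equal. The mean was 1352 ± 160 in UIRI against 1051 ± 143 in UIRI + BA (SD, n = 3), 77.7% of the UIRI level, and the log2 fold change was -0.37 (SE 0.12). It was -0.25 to -0.46 with 1 library left out, and -0.17 without both libraries numbered 3, which are the highest UIRI and the lowest UIRI + BA library for this gene.

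Cdkn1b encodes p27KIP1, which is controlled largely by protein turnover. It measured 2469, 2460 and 2926 in UIRI against 3290, 2664 and 2692 in UIRI + BA. The groups overlapped, and the log2 fold change was 0.14 (SE 0.11), the only positive value among the 7 inhibitors. The ratio of Cdkn1a to Cdkn1b was 0.558, 0.480 and 0.512 in UIRI against 0.356, 0.409 and 0.332 in UIRI + BA, without overlap, as was that of Cdkn1c to Cdkn1b, with means of 0.365 and 0.212.

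The p53 axis itself differed little. Trp53 measured 1668, 1689 and 1384 in UIRI against 1560, 1644 and 1591 in UIRI + BA. The groups overlapped, the log2 fold change was 0.02 (SE 0.09), and its sign turned with quantile normalization and without UIRI replicate 3. RNA levels do not report the amount of p53 protein, which is set mainly by degradation. Mdm2 measured 2352, 2422 and 2299 in UIRI against 2275, 2279 and 2046 in UIRI + BA. Every UIRI + BA library was below every UIRI library, by a small margin, with a log2 fold change of -0.10 (SE 0.07) and a mean of 93.3% of the UIRI level. The ratio of Mdm2 to Trp53 was 1.41, 1.43 and 1.66 in UIRI against 1.46, 1.39 and 1.29 in UIRI + BA, with overlap. The mean ratio of Cdkn1a to Mdm2 (0.575 ± 0.083 in UIRI, 0.476 ± 0.039 in UIRI + BA; SD, n = 3) and that of Cdkn1a to Trp53 (0.869 ± 0.195 and 0.658 ± 0.095) came from libraries that overlapped between the groups.

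Rb1, the pocket protein on which the INK4 inhibitors act through CDK4 and CDK6, measured 1248, 1325 and 1484 in UIRI against 1471, 1354 and 1387 in UIRI + BA. The groups overlapped and the log2 fold change was 0.06 (SE 0.09).

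**Figure D2:**
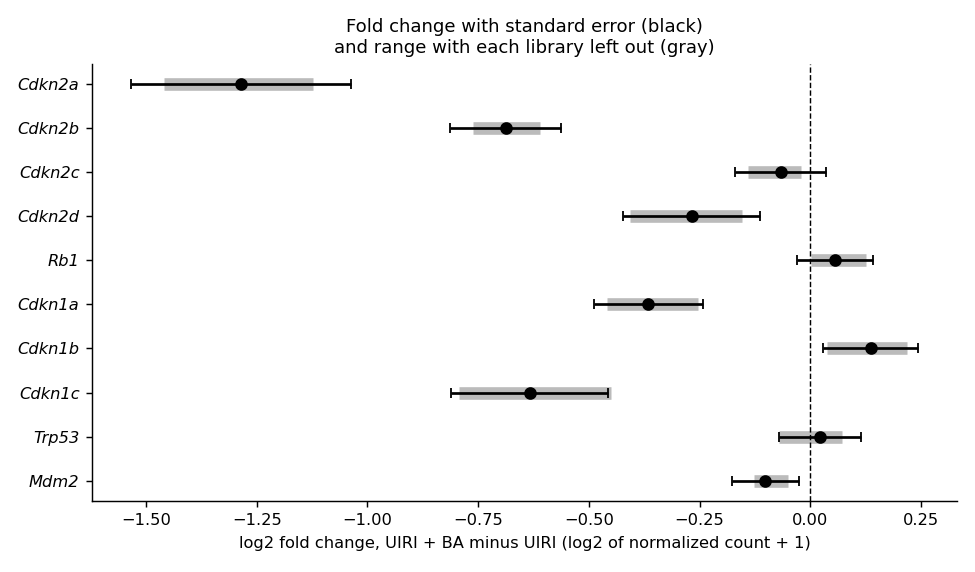
Log2 fold change of each gene (horizontal axis, UIRI + BA minus UIRI, on log2 of normalized count + 1) with its standard error in black and, in gray, the range over the 6 fits that each left out 1 library. Cdkn2a (-1.28), Cdkn2b (-0.69), Cdkn1c (-0.63) and Cdkn1a (-0.37) lie furthest from 0. Both marks also leave out 0 for Cdkn2d, Mdm2 and Cdkn1b, and for the other genes the standard error spans it.

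Of the 10 genes, 7 had a negative log2 fold change (8 with quantile normalization or without UIRI replicate 3), with a median of -0.18 beside -0.01 over all genes. In 5 of the 10 (Cdkn1a, Cdkn1c, Cdkn2a, Cdkn2b and Mdm2) all UIRI + BA libraries lay below all UIRI libraries, and in 0 all lay above. The background over all genes was 51.1% with a negative log2 fold change, 6.96% wholly below and 7.45% wholly above. Nothing is read from these shares, because the same contrast was in view when the genes were chosen.

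For levels compared between genes, normalized counts were divided by the length of all annotated exons of a gene in kb. That length also counts exons of non-coding transcripts. For Trp53 it was 4045 bases, while the protein-coding transcripts have 1771 to 1867. The order of the genes, and the sums and shares below, therefore depend on the length used. On that scale Cdkn1b stood highest in both groups, with means of 575 per kb in UIRI against 633 in UIRI + BA, and its range met that of Cdkn1c in UIRI and of no other gene in either group. In UIRI it was followed by Mdm2 (464), Cdkn1c (460), Trp53 (391) and Cdkn1a (381), neighbors whose ranges overlapped. Rb1 (225) stood apart below them. Cdkn2b (191), Cdkn2d (186) and Cdkn2c (180) were next and overlapped, and Cdkn2a (56.8) was lowest. In UIRI + BA the order was Cdkn1b, Mdm2 (433), Trp53 (395), Cdkn1a (296), Cdkn1c (293), Rb1 (233), Cdkn2c (172), Cdkn2d (154), Cdkn2b (118) and Cdkn2a (22.9). Here Mdm2 overlapped Trp53, the ranges of Cdkn1a, Cdkn1c and Rb1 overlapped from one to the next, and those of Cdkn2c and Cdkn2d overlapped. Cdkn2b therefore passed from the highest of the INK4 means to below Cdkn2c and Cdkn2d, without overlap with either.

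The summed level of the 7 inhibitors was 2164, 1912 and 2012 normalized counts per kb in UIRI against 1767, 1722 and 1579 in UIRI + BA. The groups did not overlap, and the means were 2029 ± 126 and 1689 ± 98.2 (SD, n = 3). The share of Cdkn1b in this sum was 28.4% ± 3.44 in UIRI against 37.5% ± 3.46 in UIRI + BA (SD, n = 3), higher in UIRI + BA without overlap. That of Cdkn2b was 9.34%, 8.97% and 9.91% in UIRI against 7.09%, 7.20% and 6.70% in UIRI + BA, and that of Cdkn2a had means of 2.80% ± 0.53 and 1.35% ± 0.26 (SD, n = 3), both lower without overlap. The shares of Cdkn1a, Cdkn1c, Cdkn2c and Cdkn2d overlapped. Shares of a sum depend on each other. The level of Cdkn1b itself overlapped between the groups, at 542, 540 and 643 per kb in UIRI against 723, 585 and 591 in UIRI + BA. Its higher share therefore also reflects the lower levels of other inhibitors and is not a separate rise of Cdkn1b.

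**Figure D3:**
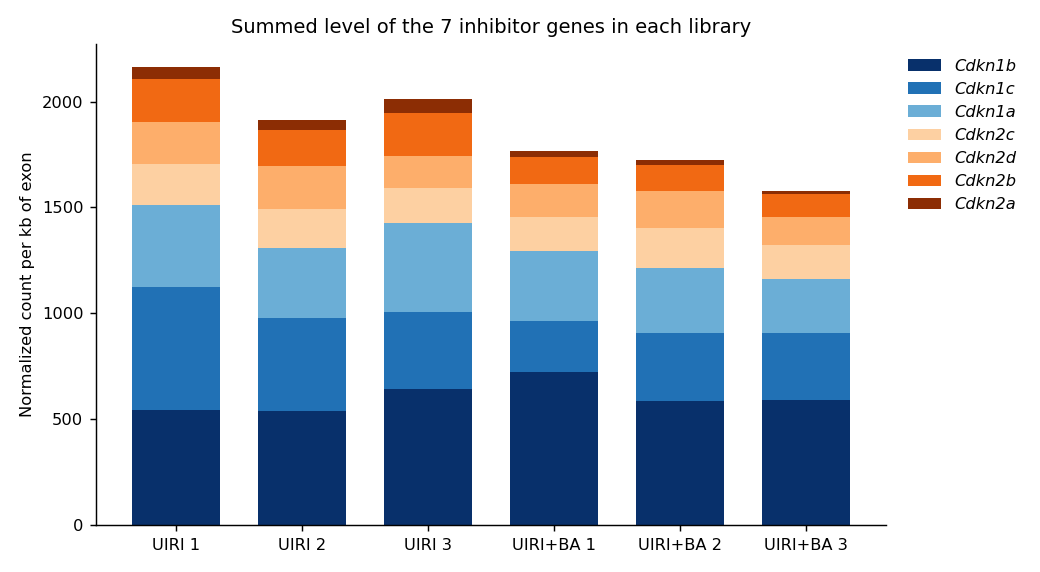
Summed level of the 7 inhibitor genes in each library (bars from 0, normalized counts per kb of exon), divided by gene. The sums run from 1912 to 2164 in UIRI and from 1579 to 1767 in UIRI + BA, with Cdkn1b as the largest single portion in all but 1 library.

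The genes around the inhibitors were read as 7 lists with 160 measured genes. limma gave 0 of these genes an adjusted p below 0.05, with 8 lower and 6 higher at an unadjusted p below 0.05, where 4.61% of all genes were lower and 5.67% higher. For these lists edgeR and DESeq2 also gave 0, and the medians can be set beside the -0.01 of all genes. Of 30 further p53 targets, 3 were lower and 1 higher at an unadjusted p below 0.05, and the median log2 fold change was -0.02. These were Phlda3, an AKT repressor (log2 fold change -0.51, SE 0.14, limma adjusted p = 0.311), Sesn1, a stress-induced metabolic regulator (-0.30, adjusted p = 0.448), Plk2, a polo-like kinase (-0.21, adjusted p = 0.486), and Pmaip1, which encodes the pro-apoptotic protein Noxa (0.34, adjusted p = 0.431). Values of p53 targets therefore stood on both sides of 0. Of 22 regulators of p53, 21 were measured and 0 had an unadjusted p below 0.05, with a median of 0.03. The lowest p belonged to the ribosomal proteins Rpl11 (-0.17) and Rpl23 (-0.15), which can bind Mdm2, to the kinase Atm (0.19) and to the acetyltransferase Ep300 (0.12), at limma adjusted p values of 0.600 to 0.670.

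Downstream of the inhibitors, the 18 genes of the Rb and E2F family had a median of 0.00, with 1 gene higher at an unadjusted p below 0.05, the repressor E2f6 (0.21, limma adjusted p = 0.456). Lin54 (0.22), E2f5 (-0.12) and Lin52 (0.15) were next in p. Of the 19 cyclins, CDKs and their direct regulators, 1 was higher at that level, Wee1, the kinase that holds CDK1 inactive (0.37, limma adjusted p = 0.404). Ccne2 (0.29), Ccnd1, the D-type cyclin that the INK4 inhibitors oppose (0.27), and Cdc25c (-0.37) followed, and the median was -0.00. Of 22 genes of S phase and mitosis 0 passed, with a median of -0.03. Bub1, of the spindle checkpoint, was at -0.23, the replication helicase subunit Mcm6 at 0.14, Cdc20 at -0.21 and Hmgb2 at -0.13.

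Of 24 genes known to set the levels of the inhibitors, such as the Polycomb proteins that silence Cdkn2a, 2 were higher at an unadjusted p below 0.05 and 0 lower, with a median of 0.01. Myc, which represses Cdkn2b and Cdkn1a, had the largest log2 fold change of the list at 0.42 (SE 0.11, limma adjusted p = 0.291), with normalized counts of 658, 678 and 775 in UIRI against 1050, 844 and 930 in UIRI + BA and no overlap. Ets2, an activator of p16INK4a, was at 0.21 (adjusted p = 0.452). Foxo3, an activator of Cdkn1b, was at 0.28 and Tbx2, a repressor of the locus, at -0.19. Of 26 secreted factors associated with senescence, 5 were lower and 1 higher at an unadjusted p below 0.05, with a median of -0.14. The stromelysin Mmp3 was at -0.46 (limma adjusted p = 0.349), the cytokine Il1a at -0.71, the macrophage elastase Mmp12 at -0.20, and the chemokine Ccl2, on the higher side, at 0.34. For MCP-1, the product of Ccl2, the study reported lower mRNA with BA by RT-qPCR in the same model.

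Without UIRI replicate 3, adjusted p values below 0.05 in limma's test were reached by 4 p53 targets (Phlda3 at -0.67, Bax at -0.46, Sesn1 and Pmaip1), 2 cyclin or CDK genes (Wee1 and Ccnd1), 2 regulators of inhibitor levels (Myc and Foxo3) and 3 secreted factors (Timp1 at -0.44, Cxcl1 at 0.78 and Cxcl2 at 0.49). Bax, Timp1, Cxcl1 and Cxcl2 were named after their values were seen. In the other lists 0 genes reached it. In all these were 11 of the 160 list genes, beside 5.02% of all genes in the same fit. Without both libraries numbered 3 the count was 5 of 160, beside 2.9% of all genes, with 1 p53 target, 2 cyclin or CDK genes, 0 regulators of inhibitor levels and 2 secreted factors.

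**Figure D4:**
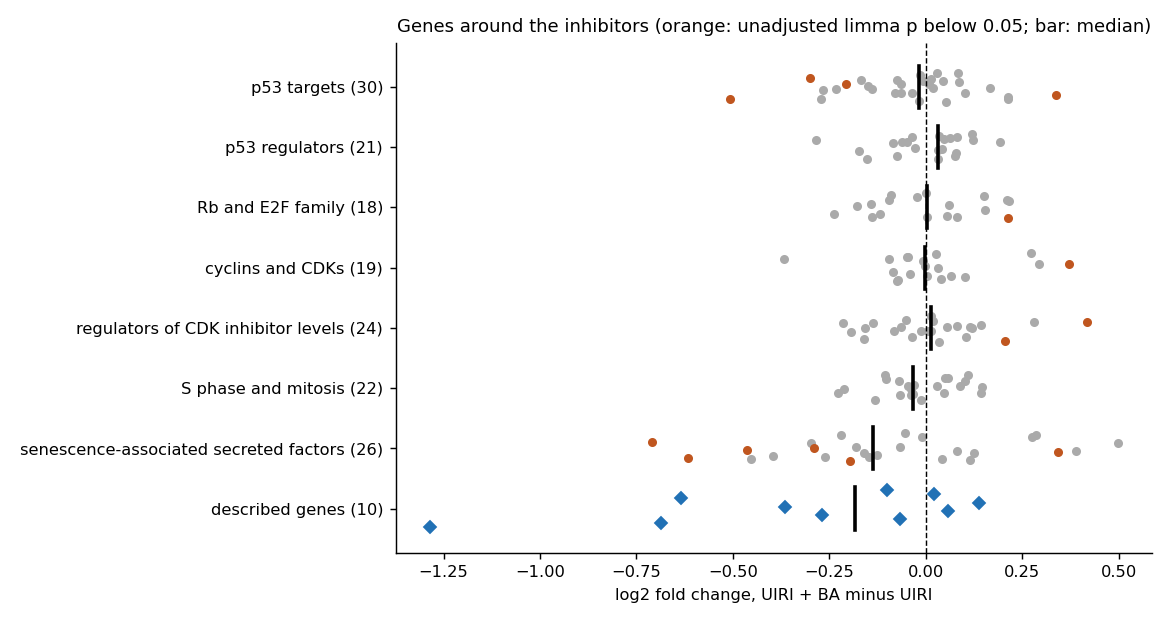
Log2 fold change (horizontal axis, UIRI + BA minus UIRI) of each measured gene of the 7 surrounding lists, with the list medians as black bars and genes at an unadjusted limma p below 0.05 in orange, above the 10 described genes as blue diamonds, for which no p is shown. The list medians lie between -0.14 and 0.03, that of the 10 genes at -0.18, and Cdkn2a at -1.28 is the lowest value.

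Cell type markers moved with the groups. In bulk tissue, fewer cells of a type and less RNA per cell cannot be told apart. All 12 proximal tubule markers had a positive log2 fold change (median 0.70), and their summed level was 61711 to 81672 normalized counts in UIRI against 88970 to 146157 in UIRI + BA, without overlap. All 10 fibroblast and myofibroblast markers had a negative one (median -0.32), with sums of 115689 to 134342 and 84564 to 107653, again without overlap. The mean sum in UIRI + BA was 76.8% of that in UIRI, beside 40.3% for Cdkn2a, 62.0% for Cdkn2b, 63.7% for Cdkn1c and 77.7% for Cdkn1a. All 10 macrophage markers had a negative log2 fold change as well (median -0.27), with overlapping sums of 92008 to 131563 and 88104 to 101810. The part of these cell types in the inhibitor values was not tested.

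Injury markers of the tubule went both ways, with Lcn2 (-0.51) and Krt18 (-0.39) lower without overlap and Havcr1 (0.42) and Vcam1 (0.35) higher without overlap. By RT-qPCR in the same model, the study reported lower mRNA with BA for both KIM-1 (Havcr1) and NGAL (Lcn2). The direction of Havcr1 here was thus the opposite, and that of Lcn2 the same. Of the 10 urothelium markers, 9 had a negative log2 fold change (median -1.31), each with overlapping groups, and Upk2 and Upk3a, which define the superficial layer, were at 0 in at least 1 library. Their summed level overlapped, at 1526 to 1955 and 1434 to 2136. Most of it was Krt20, which was also on the list of injured tubule markers, so the sum is not particular to urothelium. In the libraries with the most Krt15 in their groups, Cdkn2a measured 80.0 (UIRI replicate 3) and 20.9 (UIRI + BA replicate 3). This sets 1 of the 10 markers and 1 library per group beside the gene. The part of urothelium in the Cdkn2a values was not tested. Among the remaining lists, the sums for thick ascending limb, collecting duct, endothelial, T, and B and plasma cells overlapped between the groups.

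**Figure D5:**
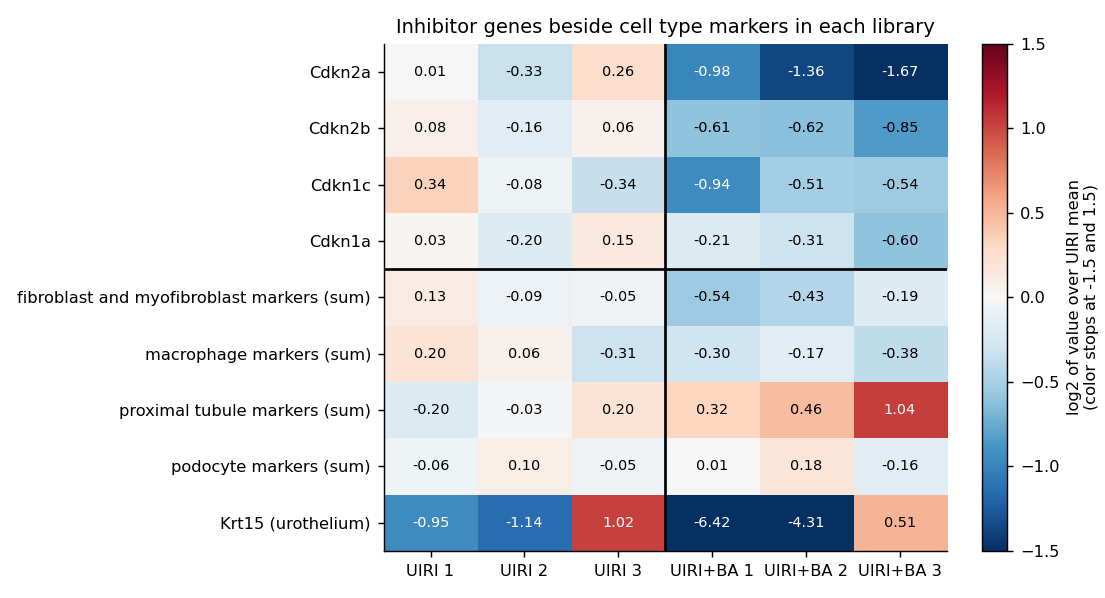
Log2 of the value over the UIRI mean in each library (columns) for 4 inhibitor genes, for summed marker lists and for Krt15 (rows), as numbers and colors. The 4 inhibitor genes are below the UIRI mean in all 3 UIRI + BA libraries, the fibroblast sum is lower by 0.19 to 0.54 there, and Krt15 is above the UIRI mean in replicate 3 of each group.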

How the data were processed

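RNA was measured in 6 libraries of renal cortex, 3 UIRI and 3 UIRI + BA, grouped by their labels. Per the methods, adaptor and quality filtering was followed by HISAT2 alignment, FeatureCounts per gene and a DESeq2 comparison, all run by the authors. The genome build and annotation are not given in the sources used here. The signal the authors deposited is the reads on each gene over 1 size factor per library. Of these values, 100% were whole reads within a tolerance of 0.01 when divided by the step of the library. No gene of the table had fewer than 10 reads over the 6 libraries. The log2 fold changes, p-values and calls of the authors' own comparison and their Gene Ontology and KEGG enrichments were not used, and 0 columns of library values went unused. Of 19166 symbols, 9 stood on more than 1 row (none of the 10 genes), and 98.2% were found in GENCODE M21.

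limma 3.58.1 (R 4.3.3) was fitted to log2(value + 1) over all 19176 rows with an intensity trend and no covariate, and p-values were adjusted by Benjamini-Hochberg. DESeq2 1.42.0 and edgeR 4.0.16 (quasi-likelihood) were run on the recovered reads. All were also run on simulated counts with large changes in well-read genes, 1 fixed dispersion and no outlying library. That run checks the code and does not show how the tools perform on these data. Also tried were upper quartile scaling, quantile normalization, a mean of at least 10, a pseudocount of 0.1, a replicate block and each library left out. Leaving out both libraries numbered 3 was added after seeing the data. The 10 genes, the 7 surrounding lists and the 11 marker lists were chosen with earlier results of these data known. Of each surrounding list, the genes with an adjusted p below 0.05 or, with none, up to 4 with the lowest p were named. Exon lengths for levels per kb came from GENCODE M21 and promoter windows from RefSeq (pandas 2.3.3, numpy 2.4.6, matplotlib 3.10.9). Depth was 16510720 to 38124164 reads, and with 3 replicates per group the precision is limited.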

Additional observations from a re-analysis of the deposited data

How the results depend on the processing

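Across 14 alternatives, 139 of 140 log2 fold changes of the 10 genes moved by less than the spread between replicates. The exception was Cdkn1a without both libraries numbered 3 (-0.17, chosen after seeing the data). Much of this count was fixed in advance. The replicate block and the mean of at least 10 leave these fold changes unchanged. Leaving out 1 library of 3 cannot move a group mean by as much as that spread. The count is therefore no test of how stable the values are. The median of the 10 genes was -0.25 to -0.10 with 1 library left out, and 7 to 8 genes were lower. Genes past an adjusted p of 0.05 numbered 0 with all libraries in limma's test, 213 with DESeq2, 0 to 962 with 1 library left out and 557 without both libraries numbered 3. At an unadjusted p the count of 1971 became 808 to 4838 with 1 library left out and 4440 without both. With 1 library left out, list genes past the adjusted threshold numbered 0 to 4 for p53 targets, 0 to 2 for cyclins and CDKs, 0 to 2 for regulators of inhibitor levels and 0 to 3 for secreted factors, and each upper value came from leaving out UIRI replicate 3. Without both libraries numbered 3 they were 1, 2, 0 and 2. The cause was not tested. With fewer than 150 reads per library, counting error adds to the replicate spread of Cdkn2a.

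The replicate numbers occur in both groups, but nothing in the labels ties same-numbered mice together. The deviations of same-numbered libraries from their group means correlated at -0.24, 0.30 and 0.15, and UIRI replicates 1 and 3 correlated best with another number. A replicate block gave 6 genes past an adjusted p of 0.05, all higher.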

Other observations

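A further 3 genes carry a related name without belonging to the INK4 or Cip/Kip families, and they were chosen after their values were seen. Cdkn3, which encodes a phosphatase of CDKs and is a marker of dividing cells, had 65.4 ± 13.9 normalized counts in UIRI and 59.9 ± 2.44 in UIRI + BA (SD, n = 3), with a log2 fold change of -0.11. Cdkn2aip, which encodes a binding partner of p19ARF, had a log2 fold change of 0.03, and its paralog Cdkn2aipnl one of 0.04. The groups overlapped for all 3 genes.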
